A study of Caenorhabditis elegans with 16 samples.

Results

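Lysozymes are secreted enzymes that cut the peptidoglycan wall of bacteria. Their messenger RNAs were followed here through a 6 h fast in young and in ageing whole Caenorhabditis elegans. The 10 genes are ilys-2, ilys-3 and ilys-5 of the invertebrate-type (ilys) family and lys-1, lys-2, lys-4, lys-5, lys-7, lys-8 and lys-10 of the family that resembles lysozymes of amoebae and other protists. They were taken by name and matched through their WBcel235 gene symbols to 10 of the 21882 gene identifiers in the count table, and all 10 passed the filter on low counts.

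Each of 4 groups held 4 libraries of whole animals of the wild-type N2 Bristol strain, raised on NGM agar plates: animals at day 8 after a 6 h fast, animals at day 8 with food throughout, young adults after the same fast, and young adults with food throughout. The labels describe no transgene, mutation or drug. The design text asks which genes are raised or lowered by fasting in young animals but not in aged ones. The labels number the libraries 1 to 4 within a group without saying that these are separate cultures, so p-values measure the spread between these libraries only, which may be technical.

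A worm that feeds grinds bacteria in the pharynx and digests them in the intestine, and lysozymes serve this digestion as well as defence against infection. In C. elegans ilys-3 is known for breaking down ingested bacteria and for defence against Gram-positive species, lys-1, lys-7 and lys-8 are known as genes raised by bacterial infection, lys-7 is a classic target of the insulin-signalling factor DAF-16, and lys-8 is a known target of the DBL-1 growth factor pathway. Laboratory worms eat live bacteria, so a fast takes away the bacteria that these enzymes act on.

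Total counts ran from 65.2 to 75.4 M per library (M, 1e6 counts) in fasted day 8 animals, 80.7 to 117.7 M in fed day 8 animals, 58.4 to 78.4 M in fasted young adults and 76.9 to 90.4 M in fed young adults. Levels are CPM (counts per 1e6 counts after TMM scaling), given per kb of annotated exon where genes are compared with each other. A gene is called higher or lower where edgeR's quasi-likelihood test, adjusted with the Benjamini-Hochberg method over 17844 tested genes, gave an adjusted p under 0.05, and every adjusted p below comes from that test unless another is named. The well codes place all day 8 libraries in plate column 2 and all young libraries in plate column 1, and the plate column therefore cannot be told apart from age. Day 8 libraries 1 and 2 stood apart from day 8 libraries 3 and 4 whether fed or fasted. All 4 libraries numbered 1 and 2 were above all 4 numbered 3 and 4 for 28.9% of tested genes, and below them for 28.4%. This held for 8 of the 10 lysozymes, all with libraries 1 and 2 above. In whole animals, fewer cells of a type and less RNA per cell cannot be told apart.

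The makeup of the lysozyme pool differed with both age and feeding. Per kb, lys-7 led at day 8, with 258 ± 175 CPM per kb in fasted and 294 ± 218 CPM per kb in fed animals (SD, n = 4 each). In fasted young adults lys-4 led at 108 ± 1.304 CPM per kb, followed by lys-8 at 77.6 ± 2.90 CPM per kb. In fed young adults ilys-5 led at 367 ± 12.07 CPM per kb, ahead of lys-1 at 209.5 ± 5.22, lys-4 at 166 ± 5.56 and lys-8 at 107 ± 3.70 CPM per kb.

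Of the summed level per kb, lys-7 thus made up 44.5 ± 11.1% in fasted and 47.4 ± 10.1% in fed day 8 animals, against 4.25 ± 0.195% in fasted and 3.28 ± 0.109% in fed young adults. The share of ilys-5 was 8.11 ± 1.38% in fasted and 11.6 ± 1.90% in fed day 8 animals, 14.7 ± 0.0616% in fasted young adults and 40.4 ± 0.248% in fed young adults. Summed over the 10 genes, the level was 530 ± 264 CPM per kb (lowest 278, highest 767) in fasted and 567 ± 338 CPM per kb (lowest 241, highest 894) in fed day 8 animals, and 288 ± 3.65 CPM per kb in fasted and 909 ± 26.9 CPM per kb in fed young adults.

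**Figure D1:**
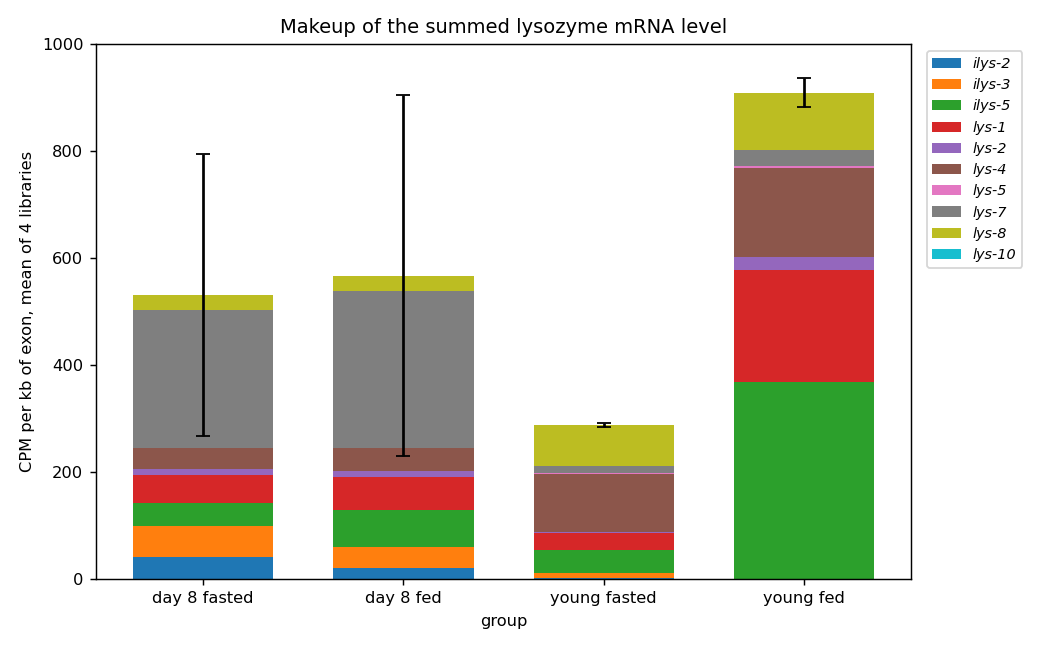
Summed level of the 10 lysozyme genes in CPM per kb of exon, stacked by gene, for fasted and fed day 8 animals and fasted and fed young adults; error bars are the SD of the sum over 4 libraries. The largest segment is lys-7 in both day 8 groups, lys-4 in fasted young adults and ilys-5 in fed young adults.

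Ranked by level per kb, the genes were well separated in young adults and less so at day 8. In fed young adults the 4 libraries of each gene did not overlap those of the next gene in the order, except between lys-10 (0.414 ± 0.162 CPM per kb) and ilys-2 (0.232 ± 0.0831 CPM per kb). In fasted young adults overlap was limited to lys-5 with ilys-2, and ilys-2 with lys-2, all near 2 CPM per kb. At day 8 most neighbours overlapped, from ilys-3 at 57.0 ± 25.2 down to lys-8 at 27.1 ± 7.01 CPM per kb in fasted animals, so that no order is read there beyond lys-7 at the top of the fasted group and lys-2, lys-5 and lys-10 at the bottom of both groups. Within each single fed day 8 library lys-7 was also the highest member. Across the fed libraries its range (94.5 to 515 CPM per kb) overlapped that of ilys-5 (22.7 to 113 CPM per kb).

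**Figure D2:**
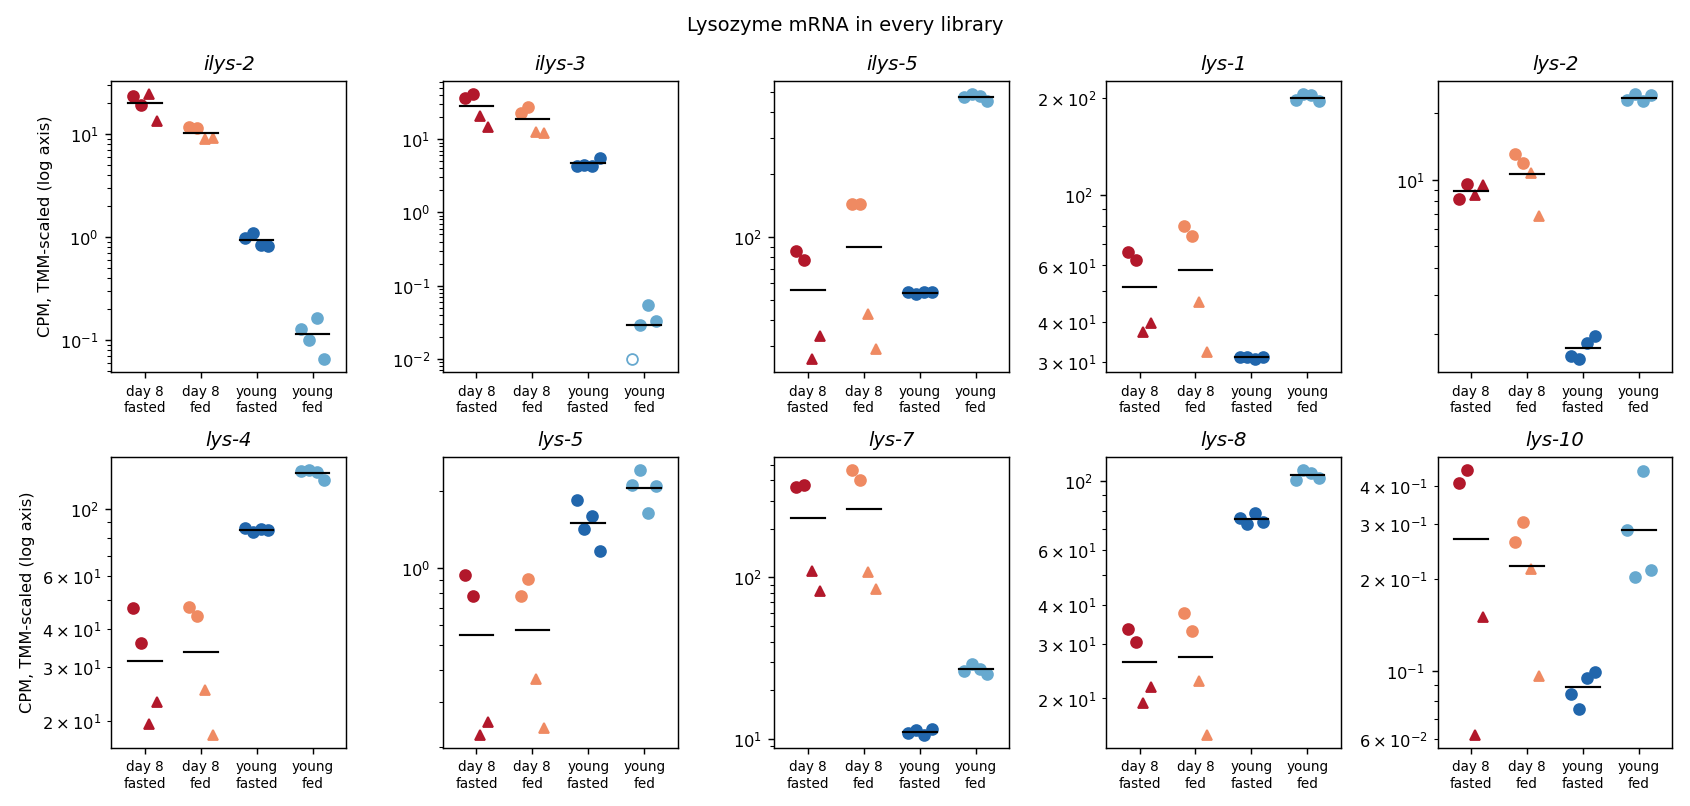
CPM on a log axis in every library for each of the 10 genes, by group; bars are group means, triangles mark day 8 libraries 3 and 4, and the open circle marks the young fed library in which ilys-3 had 0 counts, drawn at 0.01. Circles lie above triangles in both day 8 groups for 8 of the 10 genes, whereas the 4 young libraries of a group lie close together for the abundant genes.

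In young adults the fast split the family: ilys-2 and ilys-3 rose, while ilys-5, lys-1, lys-2 and lys-10 fell. Thus 6 of 10 members were called, 2 higher and 4 lower, beside 42.4% of all tested genes (21.2% higher and 21.1% lower). The fasted and fed libraries did not overlap for 9 of 10 members, against 63.4% of all tested genes. The median log2 fold change was -0.95 over the members and 0.03 over all tested genes. All tested genes divided into 3790 higher and 3767 lower under TMM, and into 5461 higher and 2582 lower by library totals alone, where the all-gene median was 0.24 and 2 members were again higher and 4 lower.

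Of the risers, ilys-3 (WBGene00016670, chromosome IV, 2464456 to 2465443, plus strand, 4 exons) moved most. It had 4.35, 4.40, 4.36 and 5.60 CPM in fasted young libraries, against 0, 0.0288, 0.0540 and 0.0328 CPM in fed young libraries. It was thus all but silent in fed young adults, where the 4 libraries together held 8 counts, against 1208 counts in the fasted ones. The log2 fold change was 7.22 ± 0.55 (SE, adjusted p = 3.63e-08), a fitted value that depends on those few fed counts. The ratio of summed counts per total count was 181, with a 95% exact Poisson interval of 91.6 to 420, or 70.4 to 667 if each read pair was counted at both ends. These intervals cover counting error only.

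The neighbouring gene ilys-2 (WBGene00016669, chromosome IV, 2467678 to 2468879, plus strand, 4 exons) had 0.975, 1.10, 0.828 and 0.823 CPM in fasted and 0.128, 0.101, 0.162 and 0.0656 CPM in fed young libraries. The groups did not overlap (log2 2.99 ± 0.27, adjusted p = 2.25e-07). Even after the fast ilys-2 stood at a low level in young adults, at 57.9 to 61.3 counts per library against 4.03 to 12.2 counts in fed ones.

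The falls included ilys-5 and lys-1, the lysozymes at the top of the order in fed young adults. The first of these, ilys-5 (WBGene00017691, chromosome X, 6533490 to 6536840, minus strand), had 54.3, 53.4, 54.7 and 54.3 CPM in fasted young libraries, against 471, 486, 479 and 450 CPM in fed ones (log2 -3.12 ± 0.48, adjusted p = 8.43e-05). No fasted library came near a fed one, and ilys-5 thus moved against ilys-2 and ilys-3 of its own family.

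The pair lys-1 and lys-2 lies 1250 bases apart on chromosome V (lys-1, WBGene00003090, 10277904 to 10279056, plus strand; lys-2, WBGene00003091, 10280307 to 10281474, minus strand), tail to tail. Both fell, with no overlap between fasted and fed libraries. Levels of lys-1 were 31.1, 31.1, 30.6 and 31.1 CPM in fasted and 198, 206, 205 and 196 CPM in fed young libraries (log2 -2.70 ± 0.25, adjusted p = 3.51e-07). Those of lys-2 were 1.60, 1.55, 1.82 and 1.96 CPM in fasted and 22.9, 24.4, 22.8 and 24.1 CPM in fed young libraries (log2 -3.76 ± 0.17, adjusted p = 1.13e-10), the largest fall among the 10 genes. The scarce lys-10 (WBGene00003099, chromosome IV, 8332826 to 8333518), with 3.94 to 6.96 counts per fasted and 12.7 to 32.9 counts per fed young library, fell as well (log2 -1.68 ± 0.57, adjusted p = 0.0276). That call ended when young fed library 3 (adjusted p = 0.0862) or any 1 of the 4 young fasted libraries was left out (adjusted p 0.0532 to 0.0643).

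Of the other 4 members, 3 also had lower values in fasted young adults, without overlap, but did not pass the test, in which the spread of a gene is estimated over all 16 libraries, the day 8 sets included. The DAF-16 target lys-7 (WBGene00003096, chromosome V, 3481432 to 3482600) had 10.8, 11.3, 10.6 and 11.4 CPM in fasted and 26.3, 29.1, 26.99 and 25.2 CPM in fed young libraries (log2 -1.28 ± 0.54, adjusted p = 0.0652). For lys-4 (WBGene00003093, chromosome IV, 11621429 to 11623174) the libraries ranged from 84.0 to 86.3 CPM fasted and from 124 to 134 CPM fed (log2 -0.62 ± 0.28, adjusted p = 0.0842). The DBL-1 target lys-8 (WBGene00003097, chromosome II, 5586178 to 5587651) ranged from 72.5 to 78.9 CPM fasted and from 101 to 108 CPM fed (log2 -0.47 ± 0.22, adjusted p = 0.0975).

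With only the 8 young libraries in the fit these 3 genes were called lower, with adjusted p = 7.54e-12 for lys-7, 1.45e-11 for lys-4 and 3.17e-09 for lys-8. In that fit lys-5 was called lower as well (adjusted p = 0.0324), so that 8 members were lower and 2 higher. Most genes were called there too: of 16139 tested, 6185 were higher and 5865 lower. In the fit over all libraries lys-5 (WBGene00003094, chromosome IV, 11624252 to 11625582), at 1.16 to 1.83 CPM fasted and 1.63 to 2.41 CPM fed, had a log2 value of -0.45 ± 0.44 (adjusted p = 0.424), and its fasted and fed libraries overlapped.

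**Figure D3:**
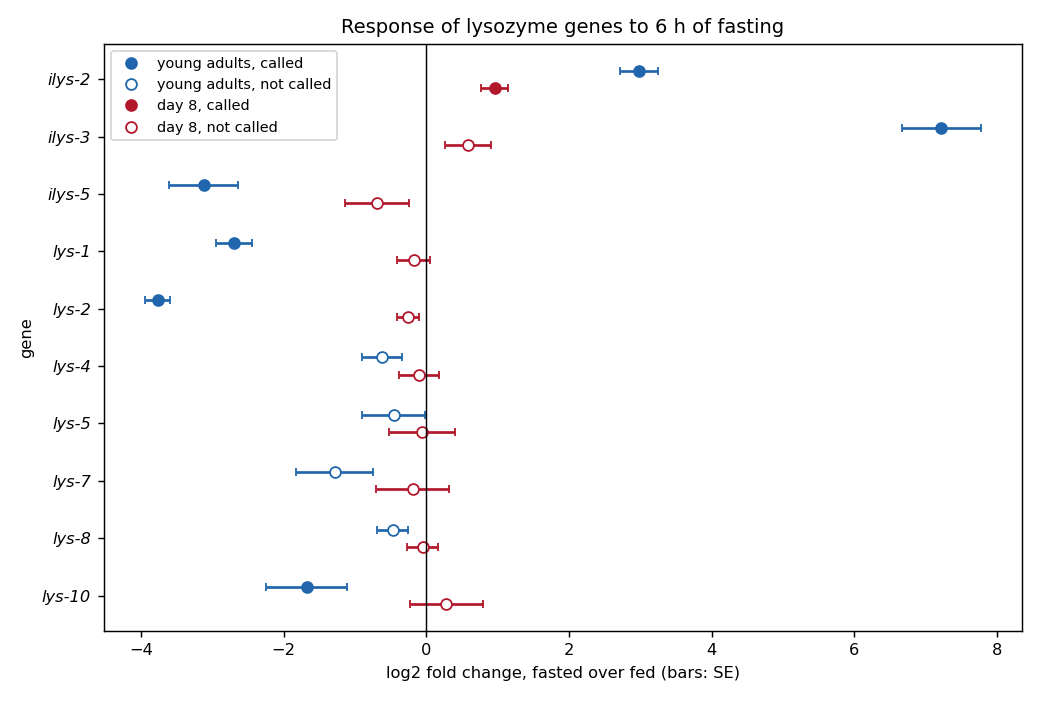
Log2 fold change, fasted over fed, with SE, for the 10 genes in young adults and at day 8; filled points passed the test. In young adults ilys-3 (7.22) and ilys-2 (2.99) lie to the right and lys-2 (-3.76), ilys-5 (-3.12) and lys-1 (-2.70) to the left, whereas at day 8 the values lie between -0.69 and 0.96.

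Markers of several tissues differed in the same young animals, where 42.4% of all tested genes were called. Of 9 intestinal markers 4 rose and 3 fell in fasted young adults. The brush border actin act-5 (log2 -3.47), the peptide transporter pept-1 (-2.37) and the exchanger nhx-2 (-1.39) fell, the intestinal factor elt-7 rose by 1.72, and the master intestinal factor elt-2 had a value of -0.07 (adjusted p = 0.518). Mean levels of the intestinal markers ges-1 (47.4 CPM fasted and 26.9 CPM fed) and ifb-2 (255 CPM fasted and 143 CPM fed) were higher in fasted young adults. Their summed level was 3223 to 3287 CPM in fasted and 3686 to 3926 CPM in fed young libraries. Of 11 pharynx markers 2 rose and 9 were not called, with a summed level of 1425 to 1510 CPM fasted and 1019 to 1068 CPM fed. Of 3 coelomocyte markers (scavenger cells of the body cavity) 1 fell, with sums of 14.1 to 16.8 CPM fasted and 17.6 to 18.4 CPM fed. No marker of these 3 tissues was at 0 in any group. Of 5 sperm markers 4 rose (sums of 87.3 to 89.8 CPM fasted and 45.5 to 49.3 CPM fed). Of 8 germline and oocyte markers 3 fell (5085 to 5190 CPM fasted and 6969 to 7199 CPM fed). Of 6 neuron markers 2 rose and 1 fell (388 to 398 CPM fasted and 288 to 297 CPM fed). The part of tissue content in the lysozyme changes was not tested.

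At day 8 the same fast moved a single member past the test, ilys-2, or 1 of 10 beside 0.37% of all tested genes (0.151% higher). It was also the 1 member with an unadjusted p under 0.05, against 5.2% of tested genes. Libraries did not overlap for 1 member, again ilys-2, against 2.28% of tested genes. The median log2 fold change of the members was -0.08, that of all tested genes -0.01.

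Levels of ilys-2 were 23.6, 19.1, 24.3 and 13.3 CPM in fasted and 11.6, 11.5, 9.02 and 9.22 CPM in fed day 8 libraries (log2 0.96 ± 0.19, adjusted p = 0.0403). The fasted library was the higher one at all 4 numbers. Within libraries 1 and 2 the log2 ratio of mean CPM was 0.89, and within libraries 3 and 4 it was 1.05. The call was close to the threshold: it ended in 12 of 16 fits that left out 1 library (adjusted p up to 0.120, without day 8 fasted library 3) and with the 8 day 8 libraries alone (adjusted p = 0.456). It held with the replicate number as a block (adjusted p = 0.0274).

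For ilys-3 the day 8 libraries had 36.0, 41.1, 20.9 and 14.6 CPM fasted and 22.5, 27.7, 12.5 and 12.3 CPM fed. The groups overlapped, yet the fasted library was again the higher one at all 4 numbers, with log2 ratios of 0.62 in libraries 1 and 2 and 0.51 in libraries 3 and 4. The fit gave a log2 value of 0.59 ± 0.32 (adjusted p = 1.0). With the replicate number as a block the adjusted p was 0.868. It was 0.0173 with a replicate block within each age and 0.0112 with a term for the library sets.

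The 3 members with the largest falls in young adults had day 8 values that depended on the library set. Levels of ilys-5 were 85.9, 78.0, 26.03 and 33.5 CPM fasted and 145, 144, 42.7 and 29.1 CPM fed (log2 -0.69 ± 0.45, adjusted p = 1.0), a log2 ratio of -0.82 within libraries 1 and 2 and -0.27 within libraries 3 and 4. For lys-2 the ratio was -0.50 within libraries 1 and 2 and 0.03 within libraries 3 and 4, and for lys-1 it was -0.26 and -0.03. With day 8 libraries 1 and 2 alone all 3 were called lower (adjusted p = 1.38e-07 for ilys-5, 0.0182 for lys-2 and 0.00319 for lys-1), and with libraries 3 and 4 alone none of them was. The remaining members, lys-4, lys-5, lys-7, lys-8 and lys-10, had log2 values between -0.19 and 0.28 at day 8, each within its SE of 0.

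The library sets differed most for lys-7 among the 10 members. For this gene the levels were 365, 372, 110.1 and 82.4 CPM in fasted and 464, 404, 108 and 85.2 CPM in fed day 8 libraries, so that libraries 1 and 2 averaged 401 CPM and libraries 3 and 4 averaged 96.3 CPM, a ratio of 4.17. This ratio was 3.44 for ilys-5, 3.14 for lys-5, 2.11 for ilys-3, 2.04 for lys-4, 1.82 for lys-1 and 1.70 for lys-8. It was 2.73 for lys-10, and 1.18 for ilys-2 and 1.202 for lys-2, the members whose sets overlapped. What separates the sets is not given in the sources used here.

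**Figure D4:**
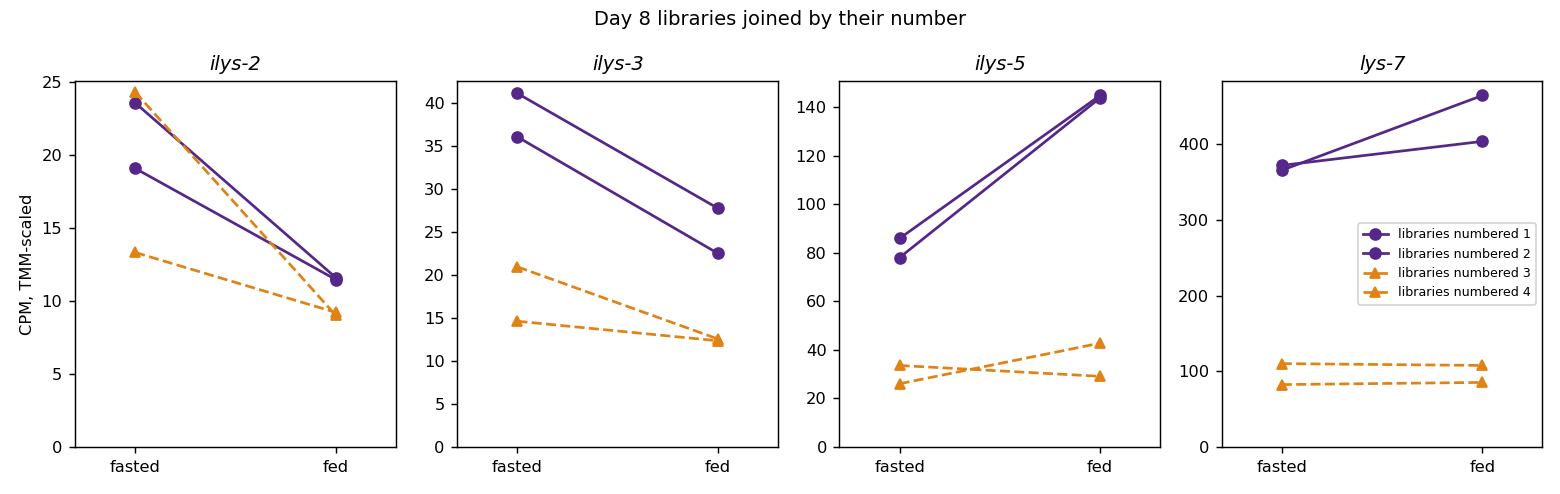
CPM of ilys-2, ilys-3, ilys-5 and lys-7 in fasted and fed day 8 animals, with libraries of the same number joined; solid lines are libraries 1 and 2, dashed lines libraries 3 and 4. All 4 lines are higher at the fasted end for ilys-2 and ilys-3, and the solid lines lie above the dashed ones for ilys-3, ilys-5 and lys-7.

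Young adults and day 8 animals differed in their response to the fast for 5 of 10 members, 2 with a positive and 3 with a negative difference, beside 26.1% of all tested genes (13.4% positive and 12.6% negative). Over all genes the split was 2396 positive and 2254 negative, and 3567 and 1699 by library totals alone, with 2 and 3 members in both. As the young minus the day 8 response, the difference was positive for ilys-3 (log2 6.64 ± 0.67, adjusted p = 1.83e-06) and ilys-2 (2.03 ± 0.33, adjusted p = 0.000249). It was negative for lys-2 (-3.51 ± 0.23, adjusted p = 1.52e-08), lys-1 (-2.52 ± 0.34, adjusted p = 3.98e-05) and ilys-5 (-2.43 ± 0.64, adjusted p = 0.0103). For the other 5 the difference did not pass, with values from -0.40 ± 0.64 for lys-5 to -1.96 ± 0.77 for lys-10 (adjusted p 0.0727 to 0.689). The call changed for 4 of these 5 with a replicate block within each age. Of 17844 tested genes, 4204 had a called positive and 4847 a called negative difference in that fit. That fit treats same-numbered libraries as paired, although day 8 numbers 3 and 4 correlated better with another number. The difference was then negative for lys-7 (-1.16, adjusted p = 4.09e-07), lys-4 (-0.54, adjusted p = 0.00344), lys-8 (-0.46, adjusted p = 0.0122) and lys-10 (-1.78, adjusted p = 0.0429). A term for the day 8 sets called the same 4 genes, and 1 replicate block shared by both ages called none of them (adjusted p 0.0778 to 0.234). Over all genes the set term gave 4461 positive and 4937 negative calls, and the shared block 2594 and 2701. These tests use the same 16 libraries as both fasting responses and are not independent of them.

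Members rose and fell with age, in numbers that differed between fasted and fed animals. In fed animals 9 of 10 members were called, 3 higher and 6 lower at day 8, beside 65.4% of all tested genes (30.8% higher and 34.7% lower), and 9 of 10 did not overlap against 61.9% of tested genes. In fasted animals 9 of 10 were called as well, 6 higher and 3 lower, beside 68.1% of tested genes (31.2% higher and 36.9% lower), and 8 of 10 did not overlap against 64.7%. The members' median was 1.14 in fasted and -1.47 in fed animals, with -0.05 and -0.01 over all tested genes. By library totals alone the split of all genes changed to 7950 higher and 5045 lower in fasted animals, against 5564 and 6585 under TMM, and to 9410 higher and 4118 lower in fed animals, against 5491 and 6184 under TMM. The all-gene medians were then 0.28 and 0.51, and as many members were called in each direction.

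A set of 3 members rose with age whether fed or fasted. At day 8 ilys-3 exceeded young levels by a log2 fold change of 2.59 ± 0.34 in fasted (adjusted p = 5.64e-06) and 9.22 ± 0.55 in fed animals (adjusted p = 8.36e-10), the last set against the near-silent fed young group. For ilys-2 the values were 4.43 ± 0.22 in fasted (adjusted p = 9.70e-11) and 6.46 ± 0.27 in fed animals (adjusted p = 1.30e-11). For lys-7 they were 4.40 ± 0.60 in fasted (adjusted p = 8.03e-06) and 3.30 ± 0.57 in fed animals (adjusted p = 9.21e-05). No day 8 library of these 3 genes overlapped a young one in either comparison. The size for lys-7 in fed animals was 4.02 with day 8 libraries 1 and 2 alone and 1.95 with libraries 3 and 4 alone, and in fasted animals 5.05 and 3.21. For ilys-3 in fasted animals it was 3.03 and 2.00. All of these were called.

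Another 3 members fell with age whether fed or fasted. These were lys-4 (log2 -1.44 ± 0.28 in fasted and -1.96 ± 0.29 in fed animals), lys-5 (-1.46 ± 0.46 in fasted and -1.86 ± 0.46 in fed animals) and lys-8 (-1.52 ± 0.23 in fasted and -1.94 ± 0.23 in fed animals). The size for lys-5 depended on the set: with libraries 1 and 2 alone it was -0.81 in fasted and -1.27 in fed animals, and with libraries 3 and 4 alone -2.56 in fasted and -2.64 in fed animals. For lys-4 in fed animals it was -1.50 and -2.49. Adjusted p with all libraries lay between 1.96e-05 and 0.0106 in fasted and between 1.66e-06 and 0.00207 in fed animals. In CPM, lys-8 ranged from 19.3 to 33.5 in fasted and from 15.3 to 37.7 in fed day 8 libraries, and lys-4 from 19.6 to 46.9 in fasted and from 18.02 to 47.3 in fed day 8 libraries, all below every young library.

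The direction of the age difference depended on feeding for lys-1 and lys-2. Day 8 levels of lys-1 were 66.2, 62.3, 37.2 and 39.6 CPM in fasted animals, above all fasted young libraries (log2 0.73 ± 0.24, adjusted p = 0.0131), and 79.6, 74.1, 46.3 and 32.1 CPM in fed animals, below all fed young libraries (-1.79 ± 0.24, adjusted p = 7.86e-06). The call in fasted animals ended without day 8 fasted library 1 (adjusted p = 0.0518). Those of lys-2 were 8.18, 9.56, 8.53 and 9.45 CPM in fasted animals (log2 2.36 ± 0.17, adjusted p = 4.40e-09) and 13.1, 11.9, 10.7 and 6.86 CPM in fed animals (-1.14 ± 0.16, adjusted p = 8.30e-06). The test of this dependence is the difference of the responses given above. Levels at day 8, fed or fasted, thus lay between those of fasted and fed young adults for both genes.

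For ilys-5 day 8 levels were lower in fed animals (log2 -2.39 ± 0.47, adjusted p = 0.000332; -1.69 with libraries 1 and 2 alone and -3.61 with libraries 3 and 4 alone), and in fasted animals the value was 0.04 ± 0.45 (adjusted p = 0.937). This near-zero value joins opposite ones: 0.59 with day 8 libraries 1 and 2 alone (adjusted p = 1.10e-09) and -0.77 with libraries 3 and 4 alone (adjusted p = 6.20e-05). For lys-10, day 8 levels were higher in fasted animals (log2 1.56 ± 0.57, adjusted p = 0.0240), although the libraries overlapped, and the call ended with day 8 libraries 3 and 4 alone (0.37, adjusted p = 0.591). It also ended without young fasted library 1 or 2 (adjusted p 0.0513 and 0.0544) or day 8 fasted library 1 or 2 (adjusted p 0.0767 and 0.0903). In fed animals lys-10 had a value of -0.40 ± 0.51 (adjusted p = 0.512), which turned to 0.09 by library totals alone.

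**Figure D5:**
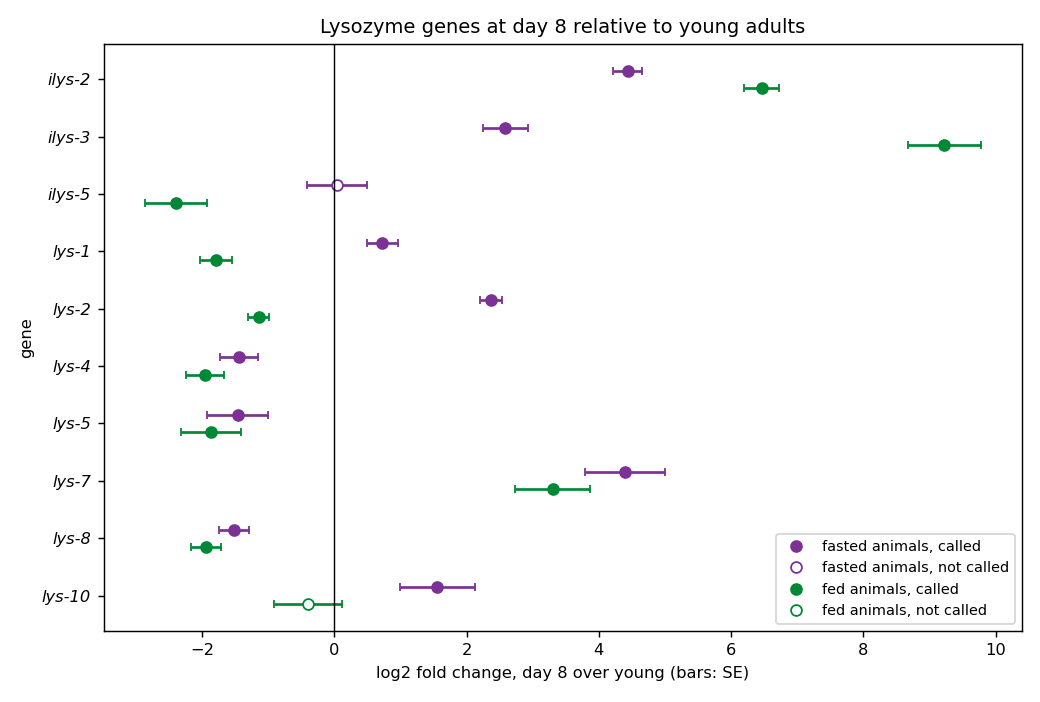
Log2 fold change, day 8 over young, with SE, for the 10 genes in fasted and in fed animals; filled points passed the test. Points of ilys-2, ilys-3 and lys-7 lie right of 0 and those of lys-4, lys-5 and lys-8 left of 0 in both states, while lys-1 and lys-2 lie on opposite sides.

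Markers of the intestine, pharynx and coelomocytes were mostly lower at day 8, in comparisons where 36.9% of all tested genes were lower in fasted and 34.7% in fed animals. In fed animals 8 of 9 intestinal markers fell with age and none rose, with a median of -1.96, and their summed level was 797 to 905 CPM at day 8 against 3686 to 3926 CPM in young libraries. In fasted animals 7 of 9 fell, with sums of 648 to 806 CPM at day 8 and 3223 to 3287 CPM in young libraries. All 3 coelomocyte markers fell in both states, and of 11 pharynx markers 6 fell and 1 rose in fed animals. All 3 body wall muscle and all 5 sperm markers fell in both states. Other lists went the other way or were mixed. Of 5 tested early embryo markers 4 rose in fasted and 2 in fed animals. When fed, their sums were 15.4 to 17.98 CPM at day 8 and 2.61 to 3.25 CPM in young libraries. Of 4 epidermis markers 3 rose and 1 fell in both states, yet their summed level was lower at day 8. It was 153 to 166 CPM against 2607 to 2809 CPM in young libraries when fed. When fasted it was 141 to 161 CPM against 1985 to 2013 CPM in young libraries. The epidermis marker that fell, col-19, averaged 2616 CPM in fed young adults and 18.02 CPM in fed day 8 animals. Of 6 neuron markers 2 rose and 1 fell in fed animals, and of 8 germline and oocyte markers 1 fell. While markers of several tissues were lower, lys-4, lys-5 and lys-8 were lower and ilys-2, ilys-3 and lys-7 higher at day 8 in both states. The remaining members, ilys-5, lys-1, lys-2 and lys-10, had no call in the same direction in both states. The part of tissue content in these differences was not tested.

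Of the 6 lysozyme genes outside the 10, 5 were tested, and ilys-6, with at most 4.14 counts in a library, was not. In fasted young adults lys-6, which lies beside lys-5, fell (log2 -1.47 ± 0.27, adjusted p = 0.000418) and ilys-4 rose (0.84 ± 0.26, adjusted p = 0.0156), while lys-3, lys-9 and ilys-1 did not pass. None of the 5 was called for fasting at day 8 by edgeR, where 1 had an unadjusted p under 0.05, lys-6 (0.00360). With age in fed animals lys-3 (log2 6.80 ± 0.71, adjusted p = 4.75e-07) and lys-9 (4.09 ± 1.11, adjusted p = 0.00420) rose and lys-6 fell (-1.27 ± 0.27, adjusted p = 0.000568). The value for lys-9 rests on very few counts, 0 to 0.995 per fed young library and 6.08 to 20.3 per fed day 8 library.

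Genes of pathways known to act on immune genes of the worm were counted from lists, to be read against 21.2% higher and 21.1% lower among all tested genes in fasted young adults. With the lists this short, their counts are descriptions only. Among 6 genes of the PMK-1 p38 kinase cascade, a main immune pathway of the worm gut, 3 rose in fasted young adults and none fell, with a list median of 0.47. These were the adaptor tir-1 (log2 2.44 ± 0.40) and the kinases nsy-1 (0.54 ± 0.10) and sek-1 (0.40 ± 0.15, adjusted p = 0.0444). At day 8 relative to young, 4 rose in fed animals, where 30.8% of all tested genes did, led by tir-1 (3.86 ± 0.42) and vhp-1 (1.96 ± 0.32).

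Among 10 genes of the DBL-1 pathway 6 rose and 2 fell in fasted young adults, with a median of 0.51. The Smad gene sma-2 (1.22 ± 0.12) and the cofactor gene sma-9 (1.08 ± 0.11) rose, and lon-2, an inhibitor of the ligand, fell (-1.28 ± 0.07). Of 12 immune and stress transcription factors 5 rose and 1 fell, with pqm-1 at 2.53 ± 0.13, the autophagy and defence factor hlh-30 at 1.26 ± 0.07 and zip-2 at 1.11 ± 0.37. Of 28 tested genes for other antimicrobial peptides and proteins 14 rose and 3 fell (median 1.27), among them the thaumatin-like thn-1 (4.03 ± 0.36), nlp-29 (2.22 ± 0.23) and nlp-31 (1.91 ± 0.16) with rises and cnc-3 (-1.85 ± 0.17) with a fall.

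At day 8 fasting moved none of these 4 lists' genes past edgeR's test, and 6 of 56 list entries had an unadjusted p under 0.05, against 5.2% of all tested genes. The entries count atf-7 in both the PMK-1 list and the transcription factor list. With age in fed animals, 14 of the 28 antimicrobial genes rose and 6 fell, beside 30.8% higher and 34.7% lower among all tested genes, for example abf-2 (log2 5.03 ± 0.19) and nlp-34 (5.90 ± 0.36). In fasted animals 9 rose and 15 fell, beside 31.2% higher and 36.9% lower.

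Several members are chromosomal neighbours. The gene ilys-3 is followed by ilys-2 after 2234 bases and then by ilys-1 after 1534 bases, lys-1, lys-2 and lys-3 lie in a row, and so do lys-4, lys-5 and lys-6. Members of a row did not always move together: in fed animals at day 8 lys-1 and lys-2 fell while lys-3, 625 bases from lys-2, rose. The nearest tested genes on either side that are no lysozymes numbered 11, of which 3 rose and 2 fell in fasted young adults and 4 rose and 3 fell with age in fed animals. The 2 that fell in fasted young adults were the neighbours of the scarce lys-10, his-30 (log2 -3.41, 776 bases away) and his-31 (-1.17, 153 bases away). Like lys-10, both were higher at day 8 in fasted animals (6.71 and 3.76). In fed animals both were higher too (2.52 and 2.62), where lys-10 was not called. By the annotation, lys-8 overlaps the protein-coding gene C17G10.13 on the other strand by 38 bases at its end, and since no source gives the strand setting of the counting, its counts may hold some reads of that gene. Apart from a piRNA within lys-4, no gene overlaps the other 8 members.

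The genes most like ilys-3 in log2 CPM over the 16 libraries were the lysosomal lipase lipl-1 (Pearson r = 0.986), the carnitine palmitoyltransferase cpt-4 (0.980) and ate-1 (0.980). The gene lipl-1 averaged 22.03 CPM in fasted and 19.7 CPM in fed day 8 animals, 8.68 CPM in fasted and 0.540 CPM in fed young adults. Those most like ilys-2 were the transthyretin-related ttr-45 (0.993) and ttr-51 (0.991) and ccep-135 (0.980). Pearson's r does not weigh the size of a change. From fed young adults to fasted day 8 animals ilys-2 went from 0.114 to 20.1 CPM. Over the same groups ttr-45 went from 52.7 to 132 CPM, ttr-51 from 126 to 375, ccep-135 from 20.8 to 39.0 and ate-1 from 52.4 to 76.1 CPM. Of the 30 genes named most alike for the 10 members, 2 were lysozymes: lys-4 and lys-8 were each other's closest match (r = 0.993). Libraries of a group share their age and feeding, so these values describe 4 groups more than 16 independent points.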

How the data were processed

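Messenger RNA of whole animals was sequenced in 16 libraries, prepared per the labels' protocols with the Kapa mRNA HyperPrep kit. The authors deposited expected counts per gene, a unit named here from the values, which are not whole and differ in total between libraries. Values up to 12 lay within 0.06 of a whole number in 33.7 to 70.4% of cases, and 54.2 to 70.1% of those were even. Per the submitters' processing notes the build was WBcel235 and the tool DESeq, with no version. Aligner and counter: not given in the sources used here. Symbols, positions and exon lengths came from the WBcel235 annotation, release 115, which holds 21714 of 21882 identifiers. No sequences were used.

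Counts were rounded and filtered with filterByExpr (17844 genes kept), scaled with TMM and fitted in edgeR 4.0.16 under R 4.3.3 with 1 mean per group over all 16 libraries. The 5 contrasts were tested with the quasi-likelihood test, adjusted with Benjamini-Hochberg over all tested genes. The SE was derived from the F value. The fit was also run on simulated counts in which genes changed in fasted young libraries only. These counts held no age difference and no day 8 sets, so they cannot show how the tests behave with those. Levels per kb divide CPM by the union of annotated exons. Likeness is Pearson's r of log2 CPM (prior count 2) among genes with a lettered symbol and at least 10 CPM in 1 group, and the top 3 per member were kept.

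Members, lists and tests were chosen with earlier results of these data known. All 10 members are named. Lists are described by counts and up to 4 members with the smallest p, and a few genes beside them were chosen after their values were seen. Alternatives were RLE, upper-quartile and no scaling, no filter, DESeq2 1.42.0, counts divided by 2, replicate blocks, subsets of libraries, a term for the day 8 sets, the abundant pseudogene WBGene00004677 left out, and each library left out. No pair of libraries in a group agreed within sampling noise.

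Whether same-numbered day 8 libraries are pairs is not settled by the data. Their deviations from group means correlated at 0.329 to 0.564 between fasted and fed libraries. Numbers 3 and 4, however, correlated better with another number, at 0.469 and 0.666. In young adults these correlations were -0.00458 to 0.0399, so equal numbers there are only numbers.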

Additional observations from a re-analysis of the deposited data

Results flagged for a closer look

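The response to fasting differed between young adults and day 8 animals, by the test of the difference itself, for ilys-3 (young minus day 8 log2 difference 6.64), ilys-2 (2.03), lys-2 (-3.51), lys-1 (-2.52) and ilys-5 (-2.43). In each case the larger response on the log2 scale was the young one, and each difference kept its call in all 16 fits that left out 1 library. In CPM the day 8 rise was the larger one for ilys-2 and ilys-3. Means of ilys-2 were 10.3 fed and 20.1 fasted at day 8, and 0.114 and 0.930 in young adults. Those of ilys-3 were 18.8 and 28.1 at day 8, and 0.0289 and 4.68 in young adults. For lys-2, lys-1 and ilys-5 the young response was the larger one in CPM too.

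A single library stood far from the other 3 of its group in 3 of the 40 sets of 4 libraries checked, and chance gives about 1 in 20. These were the highest fasted young library of ilys-3 (5.60 CPM, library 4), the lowest fasted young library of lys-1 (30.6 CPM, library 3) and the lowest fed young library of lys-4 (124 CPM, library 4). For lys-1 the whole group spans 30.6 to 31.1 CPM.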

How the results depend on the processing

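All directions of the members held in young fasting, in the difference and, except for lys-10, with age in fed animals. For fasting in young adults, genes called higher (3790) and lower (3767) came to 5800 and 5821 with the replicate block within each age, 6185 and 5865 with the 8 young libraries, 5965 and 5904 with a term for the day 8 sets, 6147 and 5744 with day 8 libraries 1 and 2 only, and 6251 and 5874 with libraries 3 and 4 only. Members called lower (4) came to 7, 8, 8, 8 and 7 in that order, and to 3 to 7 when 1 library was left out. For fasting at day 8, genes called higher (27) and lower (39) came to 98 and 129 with DESeq2, 167 and 347 with the replicate block within each age, 0 and 4 with the 8 day 8 libraries, 224 and 614 with the set term, 97 and 231 with libraries 1 and 2 only, 369 and 1243 with libraries 3 and 4 only, and 10 to 43 and 22 to 58 when 1 library was left out. The plain replicate block gave 15 higher. Members called higher there (1) came to 2 with the replicate block within each age, the set term or libraries 1 and 2 only, 0 with the 8 libraries, and 0 to 1 when 1 library was left out. Members called lower there (0) came to 1 with the set term and 3 with libraries 1 and 2 only. For the difference, genes with a positive (2396) and negative (2254) value came to 4204 and 4847 with the replicate block within each age, 4461 and 4937 with the set term, 3639 and 4336 with libraries 1 and 2 only, and 4476 and 4355 with libraries 3 and 4 only, and members with a negative one (3) to 7, 7, 7 and 6. Library totals alone, under which the all-gene median with age in fed animals was 0.51, gave 9410 higher and 4118 lower there (5491 and 6184 with TMM). The summed CPM of the members without scaling was 245.9 in fasted and 772.5 in fed young adults, against 265.6 and 960.2 with TMM.

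Signs turned only for values not called with all 16 libraries and TMM. At day 8 the fasting value became 0.0239 for lys-2, 0.10 for lys-8 and -0.53 for lys-10 with libraries 3 and 4 only, and 0.0228 for lys-5 with libraries 1 and 2 only. Leaving out 1 library gave -0.37 to 0.0151 for lys-1, -0.36 to 0.11 for lys-4, -0.45 to 0.26 for lys-5, -0.51 to 0.23 for lys-7, -0.24 to 0.15 for lys-8 and -0.0886 to 0.58 for lys-10. With age in fed animals lys-10 was 0.0949 by library totals. With age in fasted animals ilys-5 was -0.17 with the replicate block, -0.13 with the block within each age or the set term, -0.77 with libraries 3 and 4 only, and -0.24 to 0.29 when 1 library was left out. The cause of these shifts was not tested. Depth limits lys-10 in all groups and ilys-2 and ilys-3 in fed young adults. Sets of libraries 1 and 2 and of 3 and 4, and library totals alone, were chosen after seeing the data.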

Other observations

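Outside the 10 genes, lys-3 showed the day 8 library sets in the other direction. It had 8.05, 7.05, 20.1 and 23.5 CPM in fasted and 5.89, 9.55, 28.9 and 27.4 CPM in fed day 8 libraries, so that libraries 3 and 4 were above libraries 1 and 2 in both feeding states, whereas 8 of the 10 genes had libraries 1 and 2 above. In young adults lys-3 stood at 0.334 ± 0.171 CPM in fasted and 0.163 ± 0.101 CPM in fed animals (SD, n = 4 each). Its neighbour lys-2, 625 bases away, had overlapping sets.

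The factor hlh-30 was higher in fasted than in fed young adults (log2 1.26 ± 0.07) and lower at day 8 than in young adults when both were fasted (-0.93 ± 0.07, adjusted p = 1.13e-08, edgeR). Of the 12 listed factors 2 were higher and 6 lower in that comparison of fasted animals. Among the lysozymes, ilys-2, ilys-3, lys-1, lys-2, lys-7 and lys-10 were higher at day 8. Lower ones were lys-4, lys-5 and lys-8, and ilys-5 was not called. Among all tested genes 31.2% were higher and 36.9% lower. A link between hlh-30 and the lysozymes was not tested.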
